A study of Xenopus laevis with 2 samples.

Results

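Peaks of open DNA were described at 6 genes of the germ line in Xenopus laevis embryos, dazl.L, ddx4.L, ddx4.S, dnd1.L, grip2.L and nanos1.L. They are the genes in the RefSeq table of assembly v10.1 whose symbol without the subgenome suffix is dazl, ddx4, nanos1, dnd1 or grip2, and they make up 6 of 44456 genes in that table. Of the 6 genes, 5 are L copies, and the table lists an S copy only for ddx4. For each gene, the gene itself and 20 kb on each side were taken as its window.

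Accessibility was measured by CATaDa, in which an untethered bacterial Dam methylase marks adenines in GATC motifs of reachable DNA. Both samples were wild-type whole embryos that had received 2.3 ng of the Dam-only construct as 1-cell embryos and were taken at the 256-cell stage, 4.5 h after fertilisation and before zygotic genome activation (ZGA). Each replicate pooled 500 embryos. The study calls its 2 CATaDa replicates independent biological replicates, but the sources do not say whether they came from separate clutches. The series has 1 group of 2 replicates, so no test between conditions was possible, and embryos without Dam were not analysed here. The values average all cells of an embryo, so cells that hold germ plasm cannot be told apart from the others.

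Germ plasm is a patch of RNA, protein and mitochondria at the vegetal side of the frog egg. The blastomeres that inherit it become primordial germ cells. dazl, ddx4, nanos1 and dnd1 encode RNA-binding proteins of the germ line, and grip2 encodes a scaffold protein with PDZ domains whose mRNA lies in the germ plasm of Xenopus. Transcripts of these genes are laid down in the oocyte, so their presence in an embryo before ZGA does not require transcription of the embryonic copies. The peaks therefore describe the embryonic DNA at these genes and not their RNA, which was not measured in these samples.

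The authors' peak lists held 325974 peaks in replicate 1 and 277551 peaks in replicate 2. They give no read counts, so depth is unknown, and a stretch without a peak is not shown to be closed. The study normalised accessibility at promoters to the local density of GATC motifs. This was not possible here without the genome sequence. Coverage by peaks and ranks by it are therefore not corrected for GATC density, and its part in them was not tested. A peak that overlapped one in the other replicate by 1 bp or more was called shared, and this was the case for 66.6% of all peaks in replicate 1 and 77.8% in replicate 2.

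The 6 windows, 513681 bp in all, held 77 peaks in replicate 1 and 58 in replicate 2 (67.5 ± 13.4, mean and SD, n = 2). In replicate 1, 47 of the 77 peaks were shared (61.0%), and in replicate 2, 46 of the 58 (79.3%). Both shares lay near those of all peaks. Peaks covered 6.61% of the window sequence in replicate 1 and 5.59% in replicate 2. These values pool the 6 windows, so long windows weigh more. The median coverage over the 6 windows was 7.44% in replicate 1 and 6.15% in replicate 2. The windows of 34461 protein-coding genes on assembled chromosomes had a median coverage of 5.17% and 4.80%.

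The 6 genes differed in coverage. The windows of nanos1.L, ddx4.S, grip2.L and dnd1.L were above the median of all protein-coding genes in both replicates, which was so for 39.8% of all genes. The windows of dazl.L and ddx4.L were below it in both, and the share of all genes for which this was so was not counted. nanos1.L, ddx4.S and grip2.L were in the upper 25% in both replicates, against 16.9% of all genes, and none of the 6 was in the lower 25% in both, against 16.6%.

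**Figure D1:**
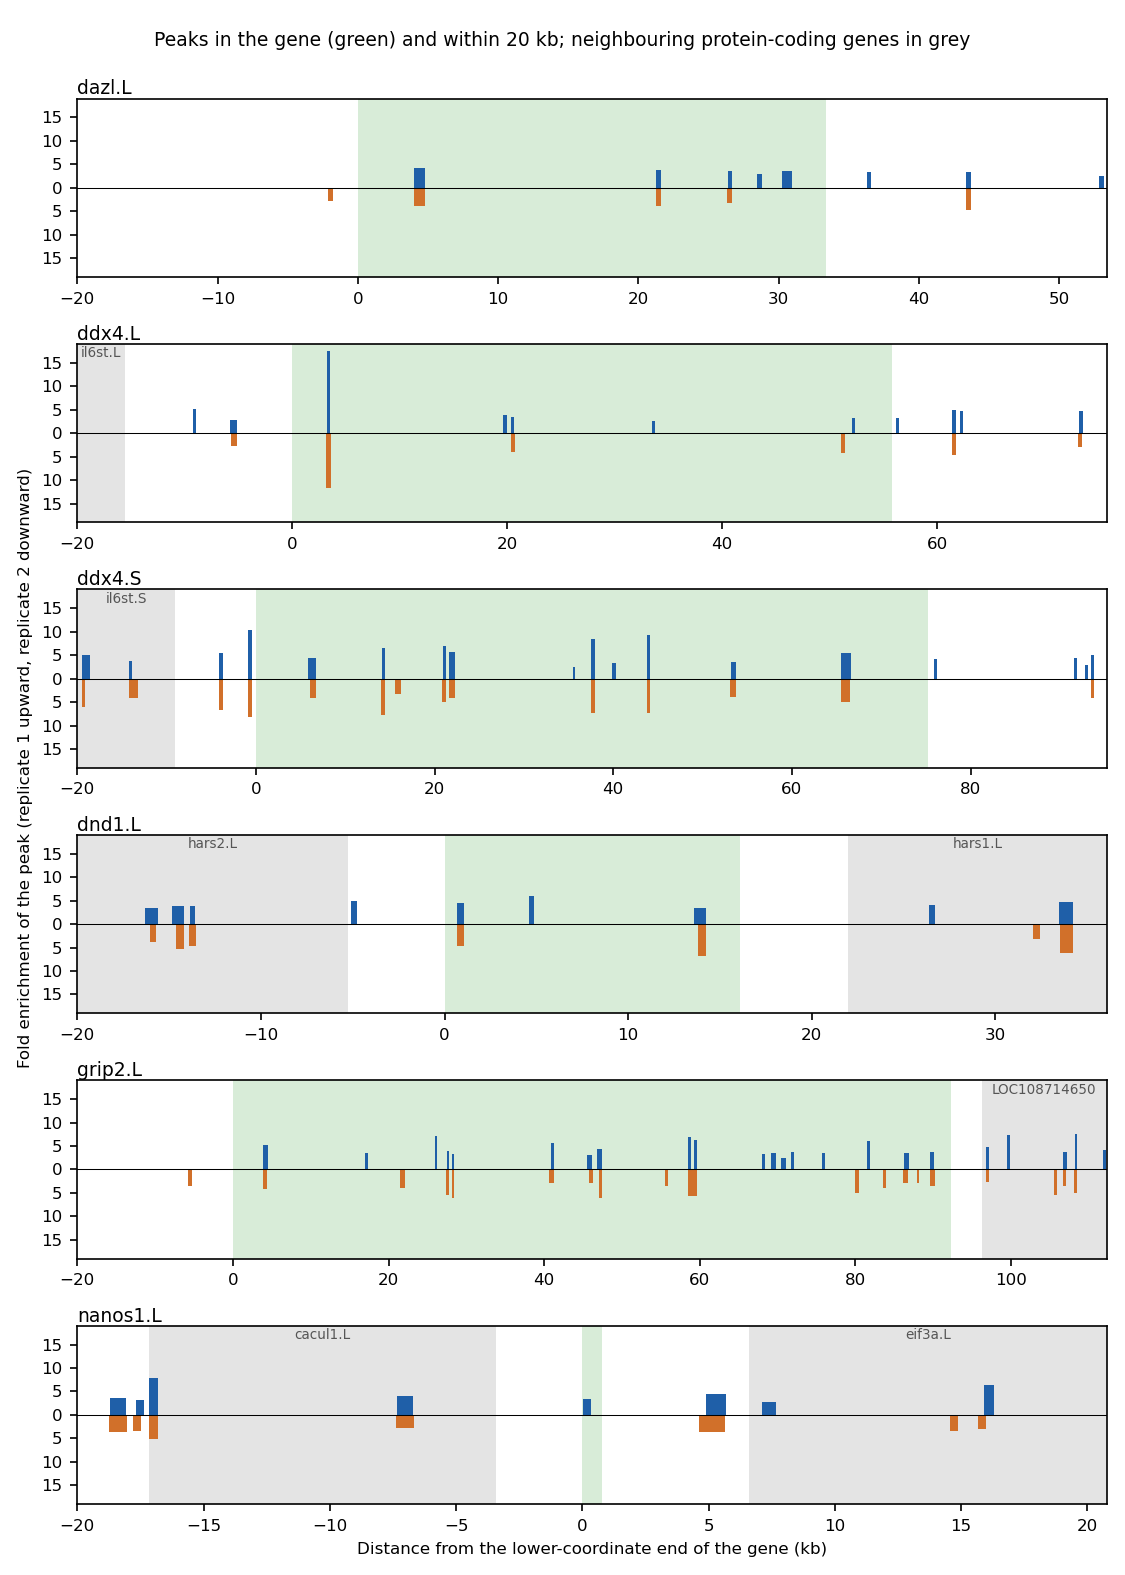
Peaks in the 6 windows, with the distance from the lower-coordinate end of the gene in kb on the x axis and the authors' fold enrichment on the y axis, replicate 1 upward in blue and replicate 2 downward in orange. The gene is green and neighbouring protein-coding genes are grey, and very narrow peaks are drawn slightly wider so that they can be seen. The highest bars in both replicates are those at 1 place within ddx4.L, 17.5 and 11.7.

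dazl encodes an RNA-binding protein that promotes translation in germ cells. dazl.L (gene ID 398041) lies on 6L from 45748958 to 45782377, and no other annotated gene reaches into its window. The window held 8 peaks in replicate 1 and 5 in replicate 2, and 4 of them in each replicate were shared. Peaks covered 4.57% and 3.003% of it, a mean of 3.79% ± 1.11 (SD, n = 2), and 25.6% of protein-coding genes had a lower mean coverage.

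The peaks of dazl.L lay mostly within the gene, 5 in replicate 1 and 3 in replicate 2. The widest shared peak, 807 bp from 45752957 to 45753763, was identical in position in the replicates. Its fold enrichment, the authors' ratio of pileup to background, was 4.17 and 3.92. Identical positions were found for 3 peaks in all 6 windows together, and for 8.08% and 9.49% of all peaks of replicates 1 and 2. Within the gene, 2 other places were shared, from 45770252 to 45770561 and from 45775325 to 45775634, and another lay outside it, from 45792340 to 45792649.

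Replicate 1 had no peak over 23999 bp, from the lower edge of the window at 45728958 into the gene at 45752956. Replicate 2 had 1 peak there, 349 bp wide with a fold enrichment of 2.85. No peak of the dazl.L window reached a fold enrichment of 5 in either replicate. The highest values were 4.17 in replicate 1 and 4.70 in replicate 2, close to the medians of all peaks, 4.34 and 4.50.

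ddx4, the vertebrate vasa gene, encodes a DEAD-box RNA helicase of germ granules. ddx4.L (gene ID 398019) lies on 1L from 208433023 to 208488826. Its window held 11 peaks in replicate 1 and 6 in replicate 2, and 5 in each replicate were shared. Peaks covered 4.04% and 2.47%, a mean of 3.26% ± 1.11 (SD, n = 2), which was the lowest of the 6 genes and above that of 16.6% of protein-coding genes.

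The highest fold enrichment of all 6 windows nevertheless lay in ddx4.L. This peak spanned 208436235 to 208436570 in replicate 1, with a fold enrichment of 17.5, and 208436166 to 208436616 in replicate 2, with 11.7. Only 0.470% of all peaks in replicate 1 and 2.83% in replicate 2 had a higher value. It began 3212 bp inside the lower end of the gene in replicate 1. The remaining peaks of the window had values of at most 5.07 in replicate 1 and 4.70 in replicate 2.

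The widest shared place of the window, 469 bp from 208427370 to 208427838, lay outside the gene on the lower side and had low values, 2.81 and 2.75. Elsewhere in the ddx4.L gene, only 1 place was shared, from 208453385 to 208453694, with a fold enrichment of 3.48 and 4.02. The longest stretch of the window without a peak ran over 18276 bp in replicate 1, from 208466808 to 208485083. In replicate 2 it ran over 30368 bp, from 208453734 to 208484101. Both stretches lay within the gene.

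ddx4.S (gene ID 108704425) lies on 1S from 179916428 to 179991704 and is the longer copy, with 75277 bp against 55804 bp. Its window held 18 peaks in replicate 1 and 14 in replicate 2, and 13 in each replicate were shared. Peaks covered 7.65% and 6.95%, a mean of 7.30% ± 0.495 (SD, n = 2), above that of 86.3% of protein-coding genes. The share of shared peaks over both replicates was 81.3%, the highest of the 6 genes but close to the 80% of nanos1.L. At ddx4.L it was 58.8%. Among all peaks, 66.6% in replicate 1 and 77.8% in replicate 2 were shared.

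Within ddx4.S, 8 places were shared. The widest was a peak of at least 1 kb in each replicate, with 1076 bp in common from 179981896 to 179982971 and a fold enrichment of 5.41 and 4.89. The peak from 179953898 to 179954351 was identical in position in the replicates, with 8.45 and 7.29. Another, from 179960220 to 179960555, had 9.31 and 7.36. The highest value of the window lay just outside the gene, 483 bp below its lower end in replicate 1, from 179915571 to 179915945, with 10.3 and 8.10.

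The copies of ddx4 were the only pair that allowed a comparison of L against S. Both have il6st, which encodes a cytokine receptor subunit, on their lower side, so the stretches towards it were set side by side. These do not correspond exactly, since il6st.S lies nearer to ddx4.S than il6st.L does to ddx4.L. The S window was covered more than the L window by 3.61 percentage points in replicate 1 and 4.49 points in replicate 2, a mean of 4.05 ± 0.619 points (SD, n = 2). The lowest value of ddx4.S was 6.95% and the highest of ddx4.L was 4.04%. How many of all pairs have replicate ranges that do not overlap was not counted. S was higher in 55.5% of 7759 homeologous pairs in replicate 1, in 56.4% in replicate 2 and in 43.4% in both, so the sign alone is common. A mean difference of at least this size was found in 4.54% of pairs, and the median over all pairs was 0.344 points.

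The difference lay in the gene and on the side of il6st. Within the gene, coverage was 2.82% and 2.06% for ddx4.L and 7.45% and 7.40% for ddx4.S. In the 20 kb towards il6st, it was 4.94% and 2.35% for ddx4.L and 9.63% and 10.48% for ddx4.S. On the other side, ddx4.L had the higher values in both replicates, 6.56% and 3.73%, against 6.46% and 1.75% for ddx4.S. Within the gene, 86.3% and 88.3% of all pairs had a lower S minus L difference than ddx4 in replicates 1 and 2. The share was 84.9% and 96.4% for the lower 20 kb, and 45.1% and 29.0% for the upper 20 kb. il6st.S begins 9081 bp from ddx4.S and il6st.L 15542 bp from ddx4.L. Of the peaks in the ddx4.S window, 2 in each replicate lay on il6st.S, and no peak of the ddx4.L window lay on il6st.L. Those on il6st.S were 861 and 310 bp wide in replicate 1 and 380 and 919 bp in replicate 2. In replicate 1, the other peaks on that side measured 379 and 375 bp for ddx4.S, against 355 and 632 bp for ddx4.L. In replicate 2, they measured 380 and 417 bp for ddx4.S, against a single peak of 469 bp for ddx4.L. Without the peaks on il6st.S, ddx4.S was thus covered less than ddx4.L there in replicate 1, but still more in replicate 2. The whole difference on that side in replicate 1, and most of it in replicate 2, lay on the neighbouring gene. The number of GATC motifs in either window was not determined, and its part in the difference was not tested. For the whole windows, the direction remained with shared peaks alone, which gave 4.16 and 4.24 points.

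**Figure D2:**
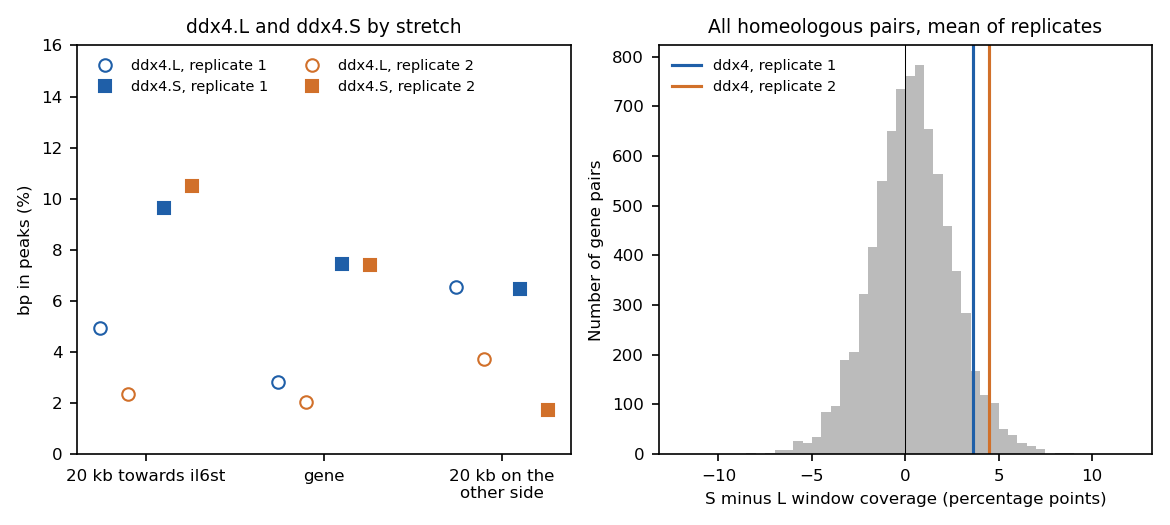
On the left, the percent of bp in peaks for ddx4.L (open circles) and ddx4.S (squares) in each replicate, for 20 kb on the side of il6st, the gene and 20 kb on the other side. On the right, the number of homeologous gene pairs by S minus L window coverage in percentage points, mean of replicates, with ddx4 in each replicate as lines at 3.61 and 4.49.

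nanos1, named Xcat2 in early work on Xenopus, encodes an RNA-binding translational repressor that acts with Pumilio proteins. nanos1.L (gene ID 397875) is a short gene of 779 bp, on 7L from 4837542 to 4838320. Its window held 8 peaks in replicate 1 and 7 in replicate 2, and 6 in each replicate were shared. Peaks covered 9.81% and 9.29%, a mean of 9.55% ± 0.366 (SD, n = 2). Only grip2.L had a smaller SD of coverage among the 6 genes. The mean was the highest of the 6 and above that of 97.7% of protein-coding genes. Its window, 40779 bp, was the shortest of the 6, and the percentiles were not matched for window length. With 50 kb on each side, the mean coverage was 7.46%, the highest mean of the 6, from 7.04% in replicate 1 and 7.87% in replicate 2. In replicate 1, ddx4.S with 7.26% and grip2.L with 7.32% were higher, so the first rank is not resolved in that setting.

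Little of this coverage lay on nanos1.L itself. Replicate 1 had 1 peak in the gene, 310 bp wide, from 4837588 to 4837897, with a fold enrichment of 3.31, and replicate 2 had none. The nearest shared place was a broad peak between nanos1.L and eif3a.L, with 743 bp in common from 4842442 to 4843184 and a fold enrichment of 4.40 and 3.67. The window also takes in parts of cacul1.L, which begins 3423 bp from nanos1.L on the lower side, and of eif3a.L, which encodes a translation initiation factor subunit. Of the window's peaks, 2 lay on cacul1.L and 2 on eif3a.L in each replicate.

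The highest fold enrichment around nanos1.L was 7.78 in replicate 1 and 5.04 in replicate 2, at the same coordinates in both, from 4820401 to 4820753. That peak lies on cacul1.L, beside the gene's lower end at 4820389. Within eif3a.L, a place from 4853467 to 4853544 was shared over only 78 bp, at the snoRNA gene LOC121395868, with 6.29 and 2.98.

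dnd1, or dead end, encodes an RNA-binding protein of primordial germ cells. dnd1.L (gene ID 398713) lies on 3L from 32844183 to 32860263, between hars2.L and hars1.L, which encode histidyl-tRNA synthetases. The window held 9 peaks in replicate 1 and 7 in replicate 2, and 6 in each replicate were shared. Peaks covered 7.72% and 5.34%, a mean of 6.53% ± 1.69 (SD, n = 2), the widest spread between replicates among the 6 genes.

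Within dnd1.L, 2 places were shared. One, from 32844852 to 32845237, began at the same base in both replicates, 669 bp inside the lower end of the gene, with a fold enrichment of 4.41 and 4.63. The other, from 32857993 to 32858413, had 3.53 and 6.75, the latter being the highest value of the window in replicate 2. The highest value in replicate 1, 6.06, belonged to a peak from 32848758 to 32849069 that had no counterpart in replicate 2.

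The neighbours of dnd1.L held much of the coverage of its window. On hars2.L lay 3 peaks in each replicate, all shared, and on hars1.L lay 2 in each replicate. The widest shared place of the window, 671 bp from 32877716 to 32878386 with a fold enrichment of 4.73 and 6.08, was on hars1.L. With 10 kb on each side in place of 20 kb, coverage was 4.61% and 2.24%, a mean of 3.42%, the lowest of the 6 genes in that setting.

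grip2 encodes a protein with PDZ domains, which bind the tails of membrane proteins. grip2.L (gene ID 100037236) is the longest of the 6 genes, 92320 bp on 4L from 132296016 to 132388335. Its window held 23 peaks in replicate 1 and 19 in replicate 2, of which 13 and 12 were shared. Peaks covered 7.23% and 7.05%, a mean of 7.14% ± 0.123 (SD, n = 2), above that of 84.7% of protein-coding genes. The replicates were thus close in coverage although 59.5% of peaks were shared.

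Within grip2.L there were 18 peaks in replicate 1 and 14 in replicate 2. The highest shared values of replicate 1 within the gene lay past its middle, from 58523 bp above its lower end. There replicate 1 had neighbouring peaks from 132354539 to 132354856 with a fold enrichment of 6.94 and from 132355287 to 132355666 with 6.24. A single peak of 1182 bp with 5.73 spanned both in replicate 2. The highest value of replicate 2, 6.14, lay from 132343030 to 132343402, where replicate 1 had 4.46. The widest overlap, 611 bp from 132385533 to 132386143, lay towards the upper end of the gene, with 3.82 and 3.56.

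Between 132355667 and 132376010, replicate 2 had no peak over 20344 bp, while replicate 1 had 5 peaks there, none of them shared, with fold enrichments of 2.49 to 3.66. In the 20 kb below the lower end of grip2.L, replicate 1 had no peak and replicate 2 had 1. The other side holds LOC108714650, a protein-coding gene 3873 bp from grip2.L, with 5 peaks in replicate 1 and 4 in replicate 2. Among them was the highest value of the window in replicate 1, 7.54, at a place that had 5.05 in replicate 2.

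**Figure D3:**
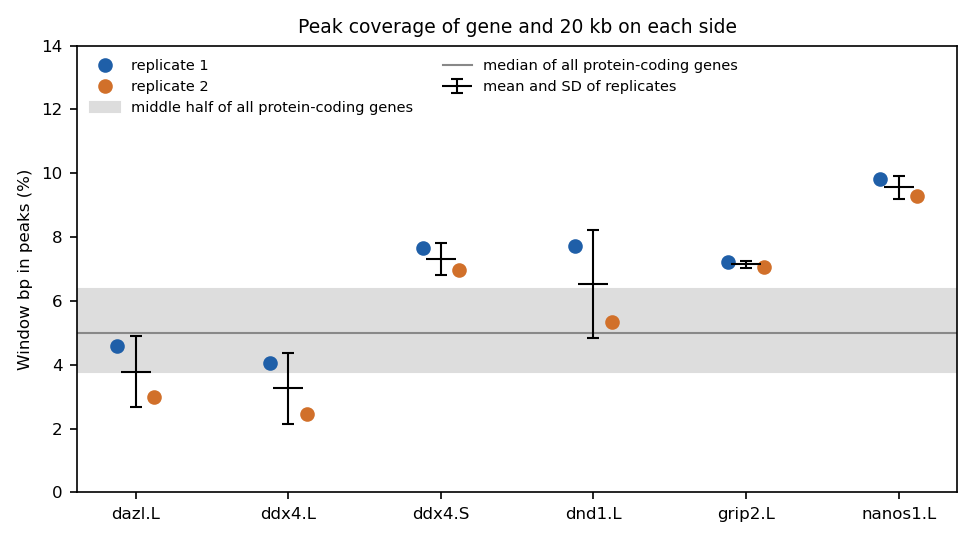
Percent of window bp in peaks for each of the 6 genes, replicate 1 in blue and replicate 2 in orange, with the mean and SD of both in black. The grey band spans the lower to the upper quartile of all protein-coding genes, 3.76% to 6.37%, and the grey line is their median, 5.01%. nanos1.L stands highest, and dazl.L and ddx4.L lie below the line in both replicates.

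Ordered by mean coverage, the genes ran nanos1.L, ddx4.S, grip2.L, dnd1.L, dazl.L and ddx4.L. Both values of nanos1.L were above every value of the other genes. The ranges of ddx4.S, grip2.L and dnd1.L overlapped, so their order is not resolved beyond the spread of the replicates. The same held for dazl.L and ddx4.L, whose values were all below those of the other 4 genes with 20 kb on each side. With 10 kb, dnd1.L had the lowest mean, 3.42%, below dazl.L with 4.37% and ddx4.L with 3.64%. Among the upper 50% of each list by fold enrichment, nanos1.L fell to rank 4, with 2.32%, and ddx4.S ranked highest, with 4.16%.

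Over the gene bodies alone, 273681 bp in all, there were 42 peaks in replicate 1 and 31 in replicate 2, or 1.53 and 1.13 peaks per 10 kb. All protein-coding genes together had 1.21 and 1.03 peaks per 10 kb. All 6 genes held a peak in replicate 1, against 81.6% of all protein-coding genes, and 5 did so in replicate 2, against 77.9%. A shared peak was present in 5 of the 6 genes, against 72.6% of all. The exception was nanos1.L, and the 5 genes are all longer than 10 kb. Among protein-coding genes as long as that, 90.7% held a peak in both replicates and 88.4% a shared one, so the count is near the background.

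Gene ends were examined because the study took promoters as 1 kb on each side of the transcription start. The table gives no strand, so both ends were used and starts cannot be told apart from the opposite ends. A peak within 1 kb of an end was present in both replicates at 2 of 6 genes, ddx4.S and dnd1.L, against 35.7% of all protein-coding genes. At ddx4.S it was the peak below the lower end described above, and at dnd1.L the peak 669 bp inside the lower end. In replicate 1, 4 of 6 genes had such a peak, against 47.7% of all, and in replicate 2 the same 2 as above, against 42.2%. Replicate 1 alone had one at ddx4.L, 352 bp beyond the upper end with a fold enrichment of 3.27, and at nanos1.L, where it was the peak within the gene. Replicate 1 also had an unshared peak 676 bp beyond the upper end of ddx4.S, with a fold enrichment of 4.20. No peak was within 1 kb of either end of dazl.L or grip2.L in either replicate. Counting peaks in the gene or within 1 kb of it, 5 of 6 genes had one in both replicates, against 79.5% of all.

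The median fold enrichment over the 6 windows was 4.04 (replicate 1) and 4.09 (replicate 2), against 4.34 and 4.50 for all peaks. In replicate 1, 33 of 77 peaks were above the median of their list, and in replicate 2, 24 of 58. Shared peaks had a median of 4.41 and 4.15, and the others 3.58 and 3.48. All peaks were not split in this way, so the difference cannot be called particular to these windows. The genes differed in this respect too. ddx4.S had the highest medians, 5.02 and 4.97, whereas dazl.L had the lowest in replicate 1, 3.37, and nanos1.L the lowest in replicate 2, 3.49. Peaks of the smallest width of their list, 310 bp and 349 bp, made up 36.4% and 29.3% of peaks in the windows, against 38.1% and 37.7% of all peaks.

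**Figure D4:**
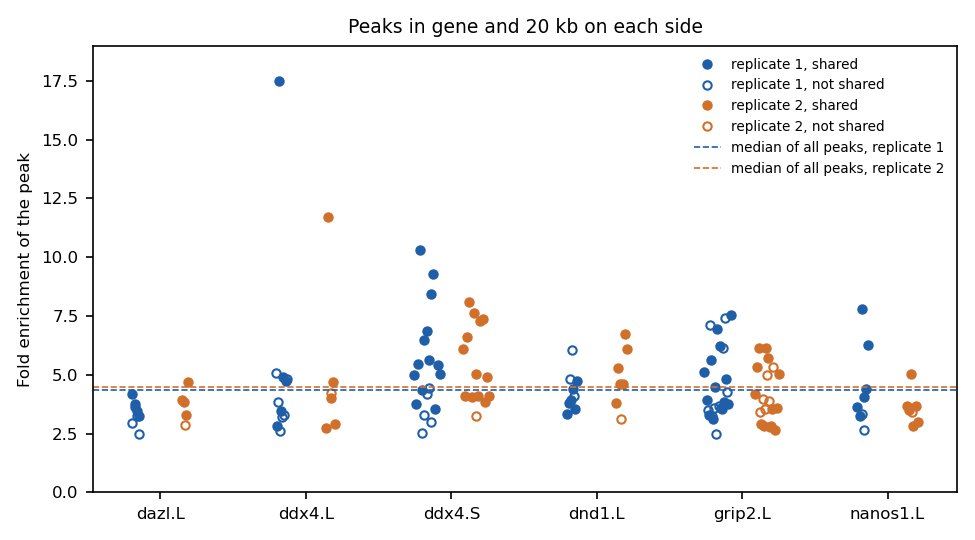
The authors' fold enrichment of every peak in the 6 windows, replicate 1 in blue and replicate 2 in orange, with filled points for peaks shared with the other replicate and open points for the others. Dashed lines mark the medians of all peaks, 4.34 and 4.50. The single ddx4.L peak at 17.5 and 11.7 stands apart, and all peaks of ddx4.S with values above 6 are filled.

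Wider lists of germline genes were then described in the same way. Of 62 symbols in 3 lists, 53 were found, as 75 genes. Mean window coverage had a median of 5.33% over these genes, against 5.01% over all protein-coding genes and 6.84% over the 6 genes above. It was above the median of all genes for 21 of 39 germ plasm genes, for 8 of 12 genes of the piRNA pathway, which silences transposons in germ cells, and for 14 of 24 genes of germ cells and meiosis. In both replicates, 17 of the 75 genes (22.7%) were in the upper 25%, against 16.9% of all genes, and 6 (8%) were in the lower 25%, against 16.6%. By list, the upper 25% held 6 of 39 germ plasm genes (15.4%) and 2 of 12 piRNA pathway genes (16.7%). It held 9 of 24 genes of germ cells and meiosis (37.5%), so only this list exceeded the 16.9% of all genes. The lower 25% held 3, 0 and 3 genes of these lists. A peak within 1 kb of a gene end in both replicates was present at 27 of the 75 genes (36%), near the background of 35.7%.

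The highest coverage among them was 11.1% ± 1.44 (SD, n = 2) at celf1.S, which encodes an RNA-binding protein. Next came pld6.S, which encodes a mitochondrial enzyme of the piRNA pathway, with 9.99% ± 0.942, and sycp3.L, a component of the synaptonemal complex, with 9.75% ± 1.20. The lowest were rbpms2.L, whose protein Hermes binds RNA in the germ plasm of Xenopus, with 1.57% ± 0.623, kitlg.S with 2.09% ± 0.620 and kitlg.L with 2.32% ± 0.567. kitlg encodes the ligand of the Kit receptor, and both of its copies were low.

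The S copy had the higher mean coverage in 10 of 22 homeologous pairs of these lists, with a median difference of -0.223 points, against 56.8% of all 7759 pairs and a median of 0.344 points. S was higher in both replicates in 8 pairs, and L was higher in both in 10, against 43.4% and 31.4% of all pairs. A difference of at least that of ddx4 was found in 3 of the 22 pairs, against 4.54% of all pairs. These were celf1 with 7.33 points, zar1 with 4.87 and rbpms2 with 4.16, which are named here after their values were seen. zar1 encodes a maternal RNA-binding protein of the oocyte.

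**Figure D5:**
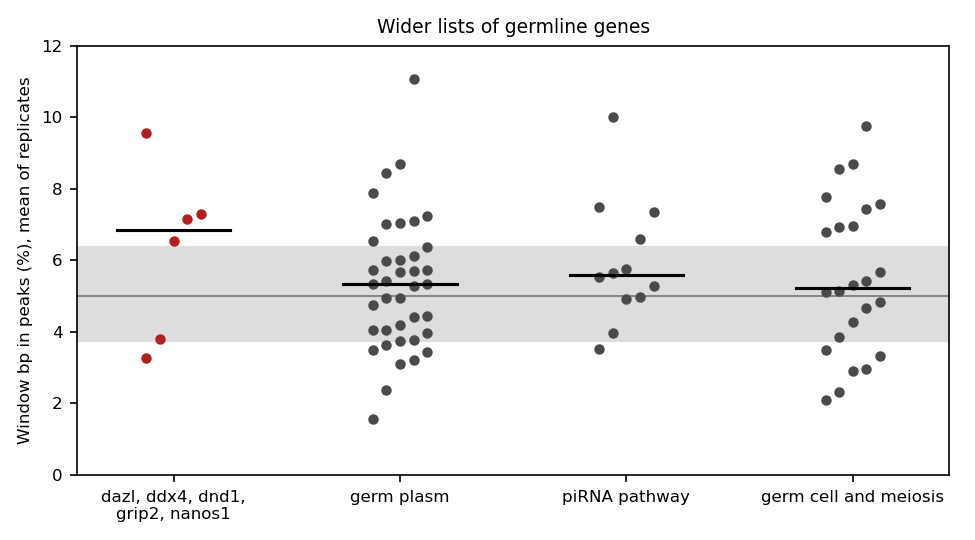
Percent of window bp in peaks, mean of replicates, for the 6 genes in red and for the genes of 3 wider lists in dark grey, 1 point per gene, with black lines for the median of each list. The grey band and line give the quartiles and the median of all protein-coding genes, 3.76%, 6.37% and 5.01%. The lists spread over the whole band and beyond it, from 1.57% to 11.1%.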

How the data were processed

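Per the submitters' processing notes and the study's methods, paired-end CATaDa reads went through the damidseq pipeline, with bowtie2 for mapping to X. laevis v10.1, and MACS 3.0.1 then gave a broad peak list for each replicate. A control library and a cutoff were not given in the sources used here. The deposited peak positions are in bp and are printed counting from 1. The authors' fold enrichment (ratio of pileup to background) and -log10 q are means over a peak. The deposited -log10 p and the score, which is 10 times the -log10 q in nearly all peaks, were not used.

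Gene positions came from a RefSeq table of assembly v10.1, without strand, exons or sequence, so the planned gene starts were replaced by both gene ends and no sequence is shown. A peak was counted with at least 1 bp in a window, and coverage was cut at window edges. Homeologous pairs share a symbol with 1 L and 1 S copy on chromosomes of the same pair. Percentiles give the share of protein-coding genes with lower coverage, without correction for GATC density. All 6 genes were named. Of the wider lists, the 3 genes with the highest and the 3 with the lowest mean coverage were named. For each gene, the peak with the highest fold enrichment per replicate and the widest shared overlap were given, and further peaks were chosen after their values were seen. Genes and lists were chosen with earlier results of these data known. Values are per replicate with mean and SD, and SDs over 2 replicates measure only the spread between these libraries. No p-value was computed. No likeness of patterns across conditions could be computed with 1 condition. Analyses used Python 3.11.15, NumPy 2.4.6 and pandas 2.3.3. Interval counts were tested on simulated data. Alternatives are given at the end.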

Additional observations from a re-analysis of the deposited data

How the results depend on the processing

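With both replicates kept, the main results gave 47 values under other settings. Of these, 27 stayed within the replicate SD, or within 1.5 times for counts, and 20 moved further. Only the S minus L difference of ddx4 can be negative, and it stayed positive in these settings. The upper flank alone, where ddx4.L was covered more, was not among them. The lower flank without the peaks on il6st.S was not among them either. Settings that drop weak peaks lower counts and coverage by construction. The upper 50% of each list by fold enrichment gave 28.5 peaks, a coverage of 2.52%, 0.530 peaks per 10 kb of gene, a median percentile over the 6 genes of 52.6 against 81.0, and an S minus L difference for ddx4 of 2.84 points. A fold enrichment of at least 3 gave a coverage of 5.32% and a difference of 4.70 points. A -log10 q of at least 2 gave a difference of 4.83 points and a median fold enrichment of 4.19. With 10 kb on each side, the median percentile was 59.1, the difference 3.20 points and the median fold enrichment 4.03. With 50 kb, there were 111.5 peaks and a median fold enrichment of 4.17. With flanks only, the median percentile was 58.0 and the difference 2.69 points. Under these 2 limits on -log10 q and on fold enrichment (2 and 3), the median percentile was 82.1 and 80.9. With 10 kb on each side, the mean coverage of dnd1.L was 3.42% against 6.53%. Alternatives chosen after seeing the data gave a difference of 4.98 points for the gene alone, a coverage of 4.54% for shared peaks alone, and 5 of 6 genes with a peak in the gene or within 1 kb of it in both replicates. A peak within 500 bp of a gene end was present in both replicates at 1 gene. The cause of these shifts was not tested beyond what their construction shows.

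Leaving out each replicate in turn gave 58 to 77 peaks, a coverage of 5.59% to 6.61%, a median percentile of 71.3 to 85.2, a ddx4 difference of 3.61 to 4.49 points, 2 to 4 genes with a peak at a gene end (4 without replicate 2), 1.13 to 1.53 peaks per 10 kb and a median fold enrichment of 4.04 to 4.09. No paired analysis was possible because the series has 1 group. Depth is unknown, which limits every statement on a missing peak.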

Other observations

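The gene table lists no S copy of dazl, grip2, nanos1 or dnd1 under these symbols. The corresponding stretch of the S chromosome was therefore taken as the interval between the S copies of the nearest genes on each side of the L gene that have both copies. This comparison was chosen after the data were seen and describes intervals and not genes. Between cacul1 and eif3a, which flank nanos1.L, the L interval of 10019 bp was covered by 11.0% in replicate 1 and 10.08% in replicate 2. It held 2 peaks in replicate 1, of which 1 was the unshared peak on nanos1.L, and 1 peak in replicate 2. The S interval, 8861 bp on 7S from 3429419 to 3438279, holds no annotated gene and was covered by 8.11% and 8.34%, with 1 peak in each replicate.

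Between nr2c2 and lsm3, which flank grip2.L at a greater distance, the L interval of 639619 bp was covered by 5.30% and 5.10% and the S interval of 582191 bp by 4.24% and 3.59%. At these intervals, as at those around nanos1.L, the L values were above the S values in both replicates. Among windows of all homeologous pairs, this was so for 31.4%, and the share among intervals of this kind was not counted. Between oxnad1 and satb1, around dazl.L, coverage of the L interval was 4.57% and 3.73% and that of the S interval 4.57% and 4.18%, so the ranges of the replicates overlapped. Between il6st and mtrex, around ddx4, the L interval had 4.95% and 4.33% and the S interval 7.43% and 7.12%, the same direction as for the windows of ddx4. These intervals contain the ddx4 genes and most of their windows, so the direction is not a separate observation. They also differ in content, with 15 annotated genes on L and 40 on S. For dnd1.L, the S copies of the nearest paired genes lie more than 2 Mb apart, and no interval was compared.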
